A study of Mus musculus with 3 samples.

Results

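The genes described here encode nuclear-coded subunits of oxidative phosphorylation, with a few of their assembly factors. Members were all genes whose symbol begins with Nduf, Sdha to Sdhd, Uqcr, Cox4 to Cox8 or Atp5, whatever their values. The gene table used for names held 119 such symbols, 100 protein-coding and 19 pseudogenes. Of the protein-coding ones 89 had a probe, out of 16358 genes with a probe. Of these 89 members, 87 had signal well above background on 1 array or more and 86 on every array, out of 13184 genes above background on at least 1 array. The pseudogenes had no probe of their own, and whether a member's probe also binds a near-identical processed copy was not tested.

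Transcripts were measured in whole mouse embryos, with 1 array per group and RNA of 3 pooled embryos on each. One pool, called triple null here, was of MafF-/-:MafG-/-:MafK-/- embryos taken at E10.5. The E10.5 control and the E9.5 control were pools of MafF-/-:MafG+/+:MafK-/- embryos of those ages. MafF and MafK were therefore lacking in all 3 groups, and none was wild type. All pools were of mixed genetic background. The small Maf proteins are bZIP partners without which CNC and BACH transcription factors do not bind their DNA elements. With a single array a group, no difference has a replicate error or a p-value, and "higher" and "lower" describe these arrays only. The first comparison below is triple null against E10.5 control, the second E10.5 control against E9.5 control and the third triple null against E9.5 control, each as the former minus the latter.

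Oxidative phosphorylation makes most ATP in cells supplied with oxygen. Complex I takes electrons from NADH and complex II takes them from succinate, complex III passes them from ubiquinol to cytochrome c, complex IV passes them to oxygen, and complex V, the ATP synthase, uses the resulting proton gradient to make ATP. Most subunits come from nuclear genes that nearly all cells express. Several subunits of complex IV also exist as a second isoform from a separate gene that is used mainly in heart and skeletal muscle, lung or testis.

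Levels are log2 of the background-subtracted spot intensity minus the 75th percentile of the same array, so 0 is the brightness of that percentile. Level differences between arrays are compared below, and levels of different probes are not set against each other. The arrays had 69.2%, 70.4% and 69.1% of probes well above background in the order triple null, E10.5 control and E9.5 control, and their number limits the precision. Mafg, the targeted gene, was at background in the triple null pool, which puts it at least 173-fold under the E10.5 control. Maff and Mafk, lacking in all groups per the labels, read above background on every array, at -1.70, -1.65 and -1.56 and at -3.97, -4.12 and -3.81, and whether their probes lie in the deleted parts was not tested. Xist had signal in the E10.5 control only, whereas Ddx3y, Eif2s3y, Kdm5d and Uty had signal in both other pools and not in that one, so each difference from the E10.5 control also compares pools of different sex. Tissue markers of an embryo were present, with 15 of 15 neuronal, 18 of 20 cardiac and 13 of 14 red cell genes above background on every array.

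Most oxidative phosphorylation transcripts stayed within 1.5-fold across genotype and stage, and so did most genes. Of genes at or above the median level, 5.99%, 5.41% and 0.998% were at least 1.5-fold apart in the order of the comparisons. Of the 86 members above background on every array, 83 lay within 1.5-fold in the first comparison, 84 in the second and 85 in the third, beside 86.2%, 86.4% and 97.0% of all genes. Cox8b, Cox6b2 and Cox7a1 were the 3 exceptions over all comparisons, and each is a tissue-restricted isoform of complex IV. The general isoforms of the same subunits stayed within 1.5-fold. No member spot was saturated.

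In the first comparison, of genotype at 1 stage, 1 of 86 members was at least 2-fold apart, against a background of 5.45% of the 12529 genes above background on both arrays. Past 1.5-fold were 3 members, against 13.8% of those genes. The median difference of the members was 0.0011 on the log2 scale with 43 above 0 and 43 below, and became -0.09 with 24 above 0 under quantile normalization. Over all genes the median was 0.06, and 58.4% lay above 0. The quartiles of the members were -0.06 and 0.10, and those of all genes -0.17 and 0.23. Quantile normalization turned the sign of 21 of the 86 members in the first comparison, 14 in the second and 4 in the third, none of which was past 0.19 on the log2 scale before, so the sign of a small difference rests on the scaling.

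In the second comparison, of stage among the controls, 1 of 86 members was past 2-fold, against 5.19% of 12514 genes. Past 1.5-fold were 2 members, both higher at E10.5, against 13.6% of those genes. The median was 0.05, or 0.16 under quantile normalization, with 57 members above 0, beside a median of -0.05 over all genes with 42.8% above 0. These differences use the E10.5 control array as the first comparison does, so the opposite signs in both are not separate observations.

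In the third comparison, which sets apart both genotype and stage, 0 of 86 members were past 2-fold and 1 was past 1.5-fold, against 0.783% and 3.03% of 12521 genes. Here 70 members lay above 0, with a median of 0.08, against 51.5% of all genes and a median of 0.0050. The scanner software's own error put the error of a single member's difference at a median of 0.20, and spots of probes printed 10 times had a median SD of 0.06 at levels from 0 to 2 on the E9.5 array.

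The same error gives a second reading of single members. In the first comparison 6 members were more than 2 such errors apart, against 27.1% of all genes: Atp5b, Cox7a1, Ndufaf4 and Sdhaf2 higher in the triple null pool, and Cox6b2 and Cox8b lower. In the second there were 4, against 27.4%: Cox8b and Cox6b2 higher at E10.5, and Atp5b and Sdhaf2 lower. In the third Cox8b was the 1 member, against 6.25%. This error covers the spot and not the embryos, and it shrinks with the number of probes of a gene.

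Probes with high intensity differed less between arrays in these data, and most member probes were of this kind, which depends on the probe as well as the transcript. Among genes at or above the median level, 5.99%, 5.41% and 0.998% were at least 1.5-fold apart, in the order of the 3 comparisons. Of the 84 members at that level, 2, 1 and 0 were. Bright probes of single genes differed in this: Hbb-y, an embryonic globin, stood at 6.21, 7.25 and 6.34, and Hbb-bh1, another, at 7.42, 7.56 and 7.57. These levels are in the order triple null, E10.5 control and E9.5 control, which is used for all levels below. Whether brightness limits the differences of the members was not tested.

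**Figure D1:**
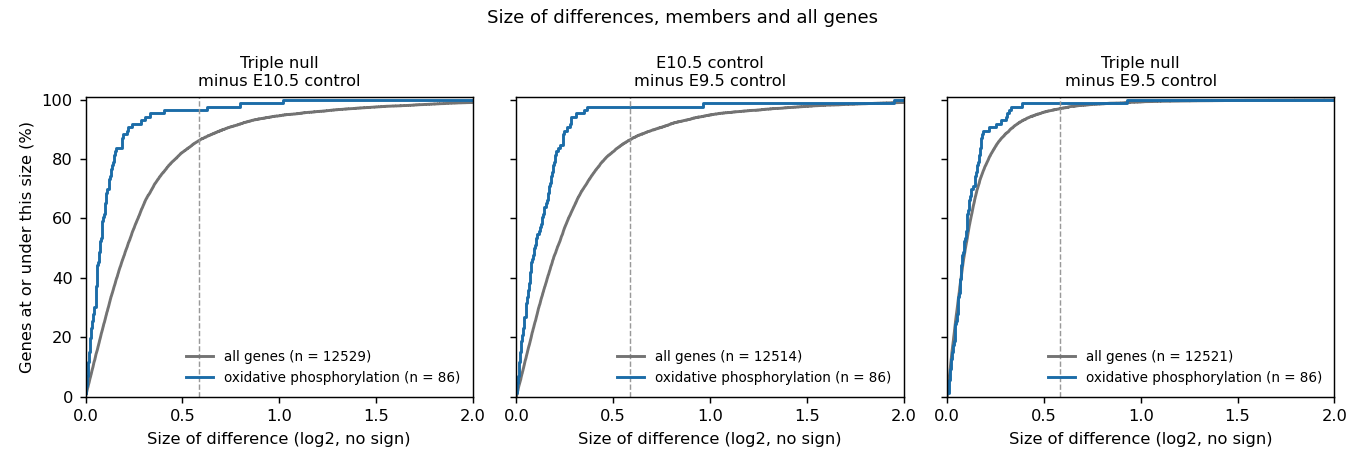
The percentage of genes (vertical axis) whose difference between 2 arrays is at or under a given size (horizontal axis, log2 without sign), for the 86 members and for all genes, with the dashed line at 1.5-fold. The curve of the members runs left of that of all genes in the first and the second panel, where 83 and 84 members lie under the line, and nearer to it in the third, where 85 do.

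Complex I, the NADH dehydrogenase, was the largest group with 39 measured members, all within 1.5-fold in each comparison. Its medians were -0.02, 0.07 and 0.09 in the order of the 3 comparisons, and the first became -0.10 under quantile normalization. Of 28 accessory subunits, which surround the catalytic core, 20 lay below 0 in the first comparison, against 5206 of all 12529 genes. In the second 24 lay above 0, against 42.8% of all genes. Both counts use the E10.5 control array and are not separate observations. The sizes were small: Ndufb7 was lowest in the triple null pool against the E10.5 control (-0.19), with levels of 5.26, 5.44 and 5.31.

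The 6 measured core subunits of complex I carry its electron path with their flavin and iron-sulphur clusters, and Ndufv2, the other nuclear-coded core subunit, had no probe. Ndufs3 stood at 2.88, 2.94 and 2.58, so both E10.5 pools were above the E9.5 pool. It was the highest complex I member in the second comparison (0.36) and in the third (0.30), each time by less than 2 scanner errors. Ndufs7, which lies at the ubiquinone site, stood at 4.77, 4.71 and 4.52, and Ndufs8, which holds iron-sulphur clusters, at 1.31, 1.45 and 1.17. Both were lowest in the E9.5 control, and Ndufv1, which binds NADH and flavin, varied less, at 4.79, 4.80 and 4.75. All 6 core subunits lay above 0 in the third comparison, with a median of 0.13, as did 70 of the 86 members and 51.5% of all genes.

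Among the accessory subunits, Ndufa2 stood at 4.95, 4.98 and 4.67 and Ndufb3 at 3.99, 4.02 and 3.78, so both E10.5 pools lay above the E9.5 control while differing from each other by -0.03 and -0.02. Ndufab1, the mitochondrial acyl carrier protein, differed by 0.10, 0.01 and 0.10 as the mean of 2 probes, which disagreed in sign at -0.13 and 0.15 in the second comparison and at -0.02 and 0.23 in the third. Ndufv3, a regulatory subunit with 3 probes, stood at 0.87, 0.66 and 0.71, highest in triple null.

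The assembly factors of complex I, which build the complex and are not part of it, included 3 of the 6 extremes of the group over the comparisons. Ndufaf4 stood at -0.31, -0.65 and -0.48, highest in the triple null pool. It was the highest complex I member in the first comparison (0.34) and the lowest in the second (-0.17). Its 3 probes ran from 0.11 to 0.45 in the first and from -0.42 to 0.16 in the second, the widest span of the 17 members with several probes, so the second difference has no agreed sign. Ndufaf7, a methyltransferase that modifies a core subunit, was lowest in the third comparison (-0.18).

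The X-linked members Ndufa1, Ndufb11 and Cox7b were looked at because the pools differed in sex. They differed by -0.03, -0.06 and -0.03 in the first comparison. The E10.5 control, the pool with Xist signal, was the highest of the 3 for each, by no more than 0.18 over the E9.5 control.

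Complex II, succinate dehydrogenase, belongs to the citric acid cycle as well as the respiratory chain. Sdha, the flavoprotein that oxidises succinate, stood at 1.81, 1.59 and 1.80. It was lowest in the E10.5 control on both of its probes. Sdhb, the iron-sulphur subunit (3.32, 3.37 and 3.38), and Sdhc, a membrane anchor (3.18, 3.24 and 3.24), each stayed within 0.07 over the arrays. Sdhd, the other anchor, stood at 4.42, 4.26 and 4.11, so it was the highest complex II member in the second (0.15) and the third comparison (0.31).

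Sdhaf2, which helps attach the flavin to Sdha, stood at 1.41, 1.10 and 1.45. It was lower in the E10.5 control than in either other pool, with differences of 0.31 in the first comparison and -0.35 in the second. All 3 of its probes gave that order of signs, from 0.26 to 0.36 in the first comparison and from -0.51 to -0.24 in the second. Over the 6 complex II members the medians were 0.06, -0.01 and -0.01, the second becoming 0.05 under quantile normalization.

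Complex III, the cytochrome bc1 complex, had 8 members and the narrowest range of the complexes in the first 2 comparisons. Its medians were 0.04, 0.02 and 0.06, and the first became -0.10 under quantile normalization. Uqcrb, a small subunit at the ubiquinone site, stood at 3.54, 3.35 and 3.36 and was highest in the first (0.19) and the third (0.18) comparison. Uqcr11 was lowest in the first (-0.07) and highest in the second (0.13), and Uqcrq was lowest in the second (-0.12) and the third (-0.05). The core proteins Uqcrc1 and Uqcrc2 differed by 0.06 and 0.12 in the first comparison, and Uqcrfs1, the Rieske iron-sulphur protein, by -0.04. Uqcrh, the hinge protein near cytochrome c1, stood at 6.17, 6.14 and 6.11, although quantile normalization gave it differences of -0.17 and 0.21 in the first and second comparison. Uqcrq turned from 0.07 to -0.09 in the first and from -0.12 to 0.03 in the second.

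Complex V, the ATP synthase, had 17 members with medians of 0.05, 0.04 and 0.10, the first of them -0.10 under quantile normalization. Atp5b, the catalytic beta subunit, stood at 4.71, 4.30 and 4.54, lowest in the E10.5 control. It was the highest of the complex in the first comparison (0.41, or 0.30 under quantile normalization) and the lowest in the second (-0.24). Its 3 probes agreed, from 0.31 to 0.48 and from -0.29 to -0.13. Of the rest of the catalytic head and its stalks, Atp5c1, the rotating gamma subunit, differed by 0.02, 0.09 and 0.11, Atp5o, which ties the head to the stator, by 0.07, 0.09 and 0.17, and Atp5pb, the stator's b subunit, by 0.15, -0.02 and 0.13. Under quantile normalization the first and second values were -0.22 and 0.30 for Atp5c1, -0.06 and 0.20 for Atp5o, and 0.02 and 0.10 for Atp5pb. The partner alpha subunit gene Atp5a1 differed by 0.10 and -0.03, and by -0.05 and 0.10 under quantile normalization.

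Subunit c, which forms the rotating ring of the ATP synthase, is encoded by 3 genes that give the same mature protein. Atp5g1 stood at 4.84, 4.60 and 4.82, Atp5g2 at 5.46, 5.41 and 5.47, and Atp5g3 at 6.36, 6.17 and 6.26. Each was lowest in the E10.5 control, with differences of 0.24, 0.05 and 0.19 in the first comparison. Under quantile normalization these were 0.13, -0.08 and -0.02, so the sign held for Atp5g1 alone. Some small subunits ran the other way under each scaling tried: Atp5e differed by -0.13 and 0.18 in the first and second comparison, Atp5k by -0.09 and 0.20, and Atp5l, the lowest of the complex in the first, by -0.15 and 0.17. Atp5mpl was the highest in the second (0.24) and Atp5d the lowest in the third (-0.02).

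**Figure D2:**
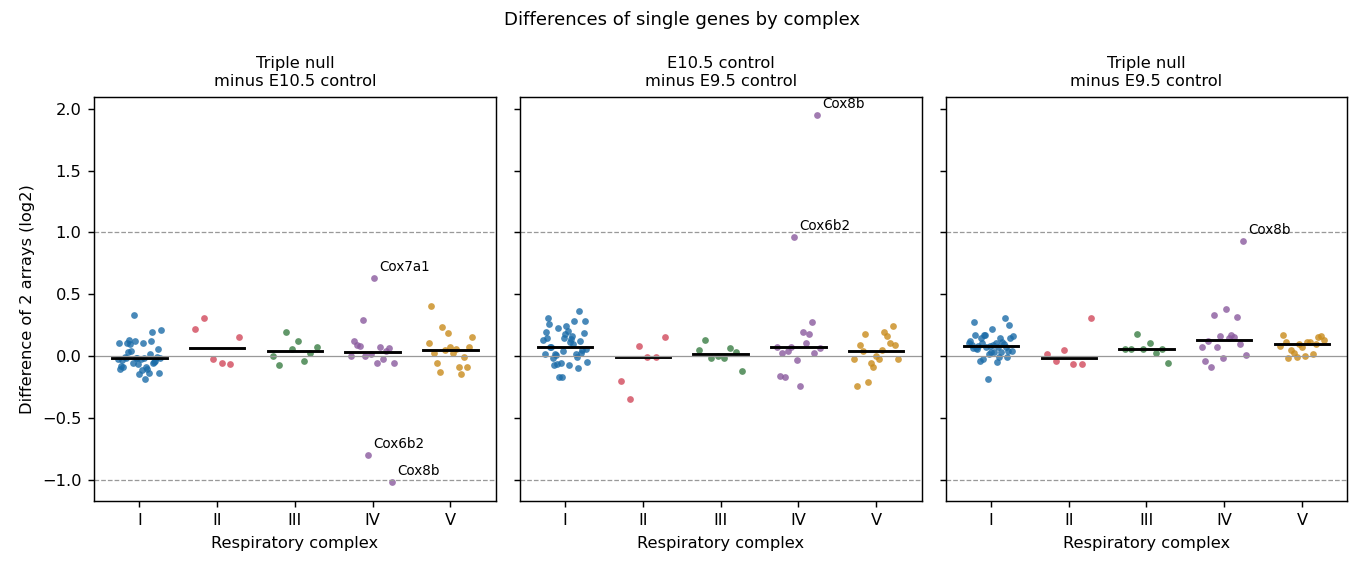
The difference between 2 arrays (log2, vertical axis) of each member by respiratory complex, with black bars at the medians and dashed lines at 2-fold. Complexes I, II, III and V lie between -0.35 and 0.41, and the labelled points past 1.5-fold are Cox8b, Cox6b2 and Cox7a1 of complex IV.

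Complex IV, cytochrome c oxidase, was split by kind of gene, and the group of tissue-restricted isoforms was set after their values were seen. Its 12 genes outside the tissue-restricted isoforms lay between -0.06 and 0.12 in the first comparison, with a median of 0.03, and all 12 were within 1.5-fold in each comparison. Under quantile normalization the median of the whole complex in the first comparison turned from 0.03 to -0.09. Cox4i1, the general form of the regulatory subunit, stood at 6.56, 6.56 and 6.49, although quantile normalization gave it differences of -0.24 and 0.31 in the first and second comparison. Cox7c had the largest difference of these 12 in the third comparison (0.32), with levels of 2.48, 2.44 and 2.16, so both E10.5 pools lay above the E9.5 control. Cox6c varied least, at 4.88, 4.86 and 4.90. Cox5a, next to the catalytic core, differed by 0.12 and -0.17 in the first and second comparison, and by -0.07 and -0.03 under quantile normalization. Ndufa4, named for complex I and now placed in complex IV, differed by -0.06 and 0.07, and its hypoxia-linked relative Ndufa4l2 had no probe. Cox7a2l, which joins complexes III and IV, differed by 0.07 and 0.10.

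Cox8b, the heart and skeletal muscle form of subunit 8, had the largest differences of any member, though not with normexp background correction. It stood at -4.64 in the triple null pool, -3.62 in the E10.5 control and -5.57 in the E9.5 control. The E10.5 control was thus the highest and the E9.5 control the lowest. Triple null was 2.03-fold below the E10.5 control and 1.90-fold above the E9.5 control, and the E10.5 control was 3.86-fold above the E9.5 control. The probe was dim: with normexp background correction these differences were -0.42, 0.70 and 0.28 on the log2 scale. Cox6b2 then had larger ones in the first and second comparison (-0.73 and 0.91), and Sdhd in the third (0.35). Spots of repeated probes at levels from -6 to -4 had a median SD of 0.15 on the triple null array. Cox8a, the general form, stood at 5.96, 5.89 and 5.87, and its difference in the first comparison turned from 0.07 to -0.08 under quantile normalization.

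Cox6b2, known as the testis form of subunit 6B, stood at -0.50, 0.30 and -0.66. It was highest in the E10.5 control, 1.74-fold above triple null and 1.95-fold above the E9.5 control, while the latter pools differed by 0.16 on the log2 scale. Cox6b1, the general form, stood at 1.55, 1.55 and 1.48.

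Cox7a1, a heart and muscle form of subunit 7A, followed another order. It stood at 1.33, 0.70 and 0.94, so the triple null pool was the highest, 1.55-fold above the E10.5 control. Cox6a2, the heart and muscle form of subunit 6A, stood at 0.57, 0.28 and 0.24, again highest in triple null but by less than 1.5-fold. The general forms Cox7a2 (4.75, 4.81 and 4.61) and Cox6a1 (7.16, 7.07 and 7.24) differed between the E10.5 pools by -0.05 and 0.08, and by -0.16 and -0.09 under quantile normalization.

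The other restricted isoforms were near or under the detection limit. Cox4i2, known from lung and as a hypoxia-linked form, had signal above background in the triple null pool only, at -6.77. That is 0.28 and 0.12 on the log2 scale over the lowest level above background on the E10.5 and E9.5 control arrays. The scanner errors of these 2 differences, 0.62 and 0.56, were larger, so no smallest fold is given. Cox7b2 and Cox8c, both testis forms, were not well above background on any array, while Cox7b, the general form, stood at 4.47, 4.50 and 4.31.

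**Figure D3:**
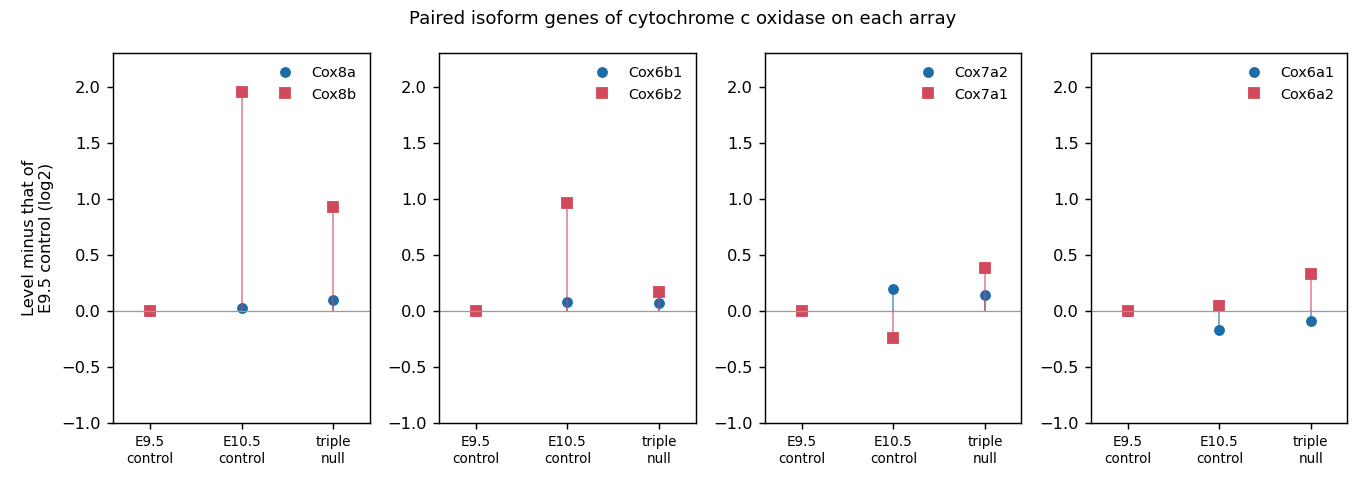
Level of each isoform gene of cytochrome c oxidase on each array minus its level in the E9.5 control (log2, vertical axis), with circles for the general and squares for the restricted gene, 1 array per point. Cox8b and Cox6b2 are highest on the E10.5 control array, at 1.95 and 0.96, Cox7a1 and Cox6a2 on the triple null array, at 0.38 and 0.33, and the circles stay between -0.17 and 0.20.

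Markers of muscle and of other tissues moved alongside these isoforms, and their part in the result was not tested. Of 20 cardiac genes 18 were measured, with a summed scaled intensity of 222, 140 and 174, the order seen for Cox7a1. Of these 18, 11 were past 1.5-fold higher and 1 lower in the first comparison, against 4.12% and 9.72% of all genes. Of 15 skeletal muscle genes 12 were measured, with sums of 9.65, 13.2 and 7.66, the order seen for Cox8b, and Myod1, the myogenic regulator, was above background in the E10.5 control at -5.11 and in neither other pool. Not every marker followed its list: Sln, an atrial regulator of the calcium pump counted with the cardiac genes, differed by -2.10 in the first comparison. Above background on every array were 11 skeletal muscle genes. Of these, 1 was past 1.5-fold higher and 6 lower in the first comparison, against the same 4.12% and 9.72%. The 11 genes ran from Tnnc2, a fast muscle troponin (-1.97), to the skeletal actin Acta1 (0.90), and Des and Tnni2 also lay above 0.

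The E10.5 control, where Cox8b and Cox6b2 were highest, was also the highest pool for the summed intensity of other marker lists. Neuron markers summed to 14.1, 56.6 and 14.5. In the first comparison 14 of 15 were past 2-fold lower, against 560 of the 12529 genes above background on both arrays. Red cell markers summed to 347, 613 and 412, with 12 of 13 past 1.5-fold lower, against 9.72% of all genes. Platelet markers summed to 2.44, 7.02 and 3.24, yolk sac endoderm markers to 12.6, 24.3 and 22.6, and hepatoblast markers to 11.4, 25.8 and 16.2. Most single yolk sac endoderm genes did not follow their sum. In the second comparison 1 of 8 lay above 0, against 42.8% of all genes. Their median was -0.96, and Afp, also on the hepatoblast list, was the highest. Macrophage and white cell markers above background on both E10.5 arrays were 6. All 6 were past 2-fold lower in the first comparison, against the same 560 of 12529 genes. In whole embryos fewer cells of a type and less RNA per cell cannot be told apart.

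The start regions of these isoform genes are shown because the members that differed and their general counterparts are close in protein function and unlike in promoter sequence. RefSeq start windows of build GRCm38.p6 were matched for 74 of the 89 members, some with several starts, which gave 79 windows. Each printed stretch runs from 170 bases before to 30 bases after the annotated start, 5′ to 3′ on the gene's strand, and capitals mark matches to any motif named below.
Cox8a (GRCm38.p6, chr19:7217587-7217786, minus strand): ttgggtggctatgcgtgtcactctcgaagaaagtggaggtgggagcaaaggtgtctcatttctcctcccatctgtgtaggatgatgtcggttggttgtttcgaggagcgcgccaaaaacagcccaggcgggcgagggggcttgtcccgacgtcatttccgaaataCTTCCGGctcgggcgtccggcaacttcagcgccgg
Cox8b (GRCm38.p6, chr7:140900417-140900616, minus strand): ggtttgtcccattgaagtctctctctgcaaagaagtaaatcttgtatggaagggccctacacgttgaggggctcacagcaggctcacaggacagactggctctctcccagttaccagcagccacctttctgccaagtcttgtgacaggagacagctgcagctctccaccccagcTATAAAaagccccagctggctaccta
Cox7a2 (GRCm38.p6, chr9:79759824-79760023, minus strand): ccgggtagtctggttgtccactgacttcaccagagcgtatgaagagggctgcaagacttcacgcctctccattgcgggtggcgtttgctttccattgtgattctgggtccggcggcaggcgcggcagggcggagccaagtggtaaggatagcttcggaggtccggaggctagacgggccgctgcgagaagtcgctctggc
Cox7a1 (GRCm38.p6, chr7:30184001-30184200, plus strand): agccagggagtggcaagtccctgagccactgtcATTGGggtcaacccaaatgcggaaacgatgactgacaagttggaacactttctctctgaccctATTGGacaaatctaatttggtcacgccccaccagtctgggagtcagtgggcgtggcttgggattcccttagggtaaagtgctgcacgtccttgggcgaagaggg
Cox6b1 (GRCm38.p6, chr7:30626085-30626284, minus strand): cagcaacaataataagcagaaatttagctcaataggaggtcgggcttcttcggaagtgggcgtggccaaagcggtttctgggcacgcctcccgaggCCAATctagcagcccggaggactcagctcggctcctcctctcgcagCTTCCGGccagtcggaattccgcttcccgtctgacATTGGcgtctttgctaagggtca
Cox6b2 (GRCm38.p6, chr7:4753065-4753264, minus strand): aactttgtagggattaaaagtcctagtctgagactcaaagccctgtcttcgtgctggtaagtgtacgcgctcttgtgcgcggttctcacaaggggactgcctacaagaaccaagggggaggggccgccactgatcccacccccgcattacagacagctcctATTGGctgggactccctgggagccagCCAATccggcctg

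In each of the 3 printed pairs the general form had more CpG pairs than the restricted form. The printed stretch held 17 in Cox8a and 1 in Cox8b, 16 in Cox7a2 and 6 in Cox7a1, and 14 in Cox6b1 and 8 in Cox6b2. In the full window of 300 bases the ratio of observed to expected CpG was 0.842 for Cox8a and 0.115 for Cox8b, 0.833 for Cox7a2 and 0.333 for Cox7a1, and 0.807 for Cox6b1 and 0.432 for Cox6b2. The median was 0.823 over the 79 member windows and 0.567 over 21263 windows of protein-coding genes. Cox8b and Cox7a1 had the lowest ratios of the member windows, followed by Cox7b and Cox6b2. The pair not printed ran the other way, with 0.368 for the general form Cox7b and 0.564 for the testis form Cox7b2.

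Motif matches were counted on both strands of the full windows. The ETS-type motif CCGGAAG, known for the factor GABP at respiratory genes, was in 24.1% of member windows and 11.6% of all. The NRF1 consensus motif was in 8.86% and 1.80%, and the YY1-type motif AAGATGGC in 12.7% and 3.05%. The ETS-type and NRF1 motifs hold CpG pairs, and the median CpG ratio was 0.823 for member windows against 0.567 over all. Windows of like CpG content were not compared. The TATAAA box was in 11.4% and 12.6% and the CCAAT box in 41.8% and 38.2%. The core of the antioxidant response element, TGACNNNGC, to which small Maf proteins bind with NRF2, was in 13.9% and 13.0%. In the printed stretches the ETS-type motif was in Cox8a and Cox6b1, the letters TATAAA in Cox8b at position 5 after its annotated start, not before it, and the CCAAT box in Cox7a1, Cox6b1 and Cox6b2. A match shows letters and not binding, and a window without one says nothing of the factor.

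Genes that act beside the complexes were read from lists, with no test of any list. An exception among them is Cyc1, cytochrome c1, a complex III subunit that the naming rule leaves out. It was counted with the electron carriers and differed by 0.15, -0.06 and 0.09. No probe could be named for the 13 mitochondrially encoded subunits, so these parts of complexes I, III, IV and V were not analysed here. The electron carriers and coenzyme Q synthesis genes had medians of 0.14, -0.09 and 0.07 in the same order of comparisons, with none of 16, 17 and 16 genes 1.5-fold apart. Cycs, cytochrome c, stood at 4.01, 3.73 and 3.90. Pdss1, which starts the coenzyme Q tail, was highest in the first (0.51) and Etfa lowest (-0.31).

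Assembly factors outside the naming rule, such as the copper and haem handling genes Cox17 and Cox10, had medians of 0.12, -0.04 and 0.11 with none of 29 genes 1.5-fold apart. Cox10 was highest (0.50) and Cox20 lowest (-0.27) in the first comparison. Citric acid cycle genes had medians of 0.13, -0.04 and 0.05. Mpc1, a pyruvate carrier, was the 1 gene of 21 past 1.5-fold, at 0.59 in the second comparison, and stood at -0.53 in the first, where Suclg2 was highest (0.43).

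The ADP and phosphate carriers and related genes had medians of 0.21, 0.08 and 0.14 over 7 genes. Slc25a4 and Slc25a5, which exchange ADP for ATP, differed by 0.24 and 0.23 in the first comparison. Ucp2 (-0.78) and the germ cell carrier Slc25a31 (0.77) were past 1.5-fold there, and Ucp2 (0.70) in the second. Atpif1, which inhibits the ATP synthase in reverse, differed by -0.16 and 0.23. Mitochondrial ribosomal protein genes, 76 in number, had medians of 0.13, -0.07 and 0.06, with Mrps18b (0.62) the 1 gene past 1.5-fold in the first comparison.

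Regulators of mitochondrial biogenesis had medians of 0.14, -0.16 and 0.0010. Tfam, which packages and transcribes mitochondrial DNA, stood at 1.97, 1.67 and 1.95, and Nrf1 at -0.34, -0.65 and -0.22, both lowest in the E10.5 control. Ppargc1a, a coactivator of these programmes, stood at -2.60, -2.59 and -2.79. Ppara (-0.69, dim) was past 1.5-fold in the first comparison and Tfb1m (-0.75) in the third.

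Glycolysis genes, the other main source of ATP, had medians of 0.65, -0.49 and 0.11 on the same arrays. Of 21 measured, 15 were past 1.5-fold higher and 1 lower in the first comparison, against 4.12% and 9.72% of all genes. In the second 1 was higher and 8 lower, against 9.26% and 4.33%. Slc2a3, a glucose transporter, stood at 4.35, 2.81 and 4.41, and Ldha, the lactate dehydrogenase subunit that favours lactate, at 6.93, 6.23 and 6.81. Both were lowest in the E10.5 control. Ldhb, the subunit more common in oxidative tissue, ran opposite at 4.21, 5.33 and 4.17, with differences of -1.12 and 1.16 in the first and second comparison. Whether the difference between glycolysis genes and the members goes beyond the spread between pools was not tested, as each pool is a single array.

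**Figure D4:**
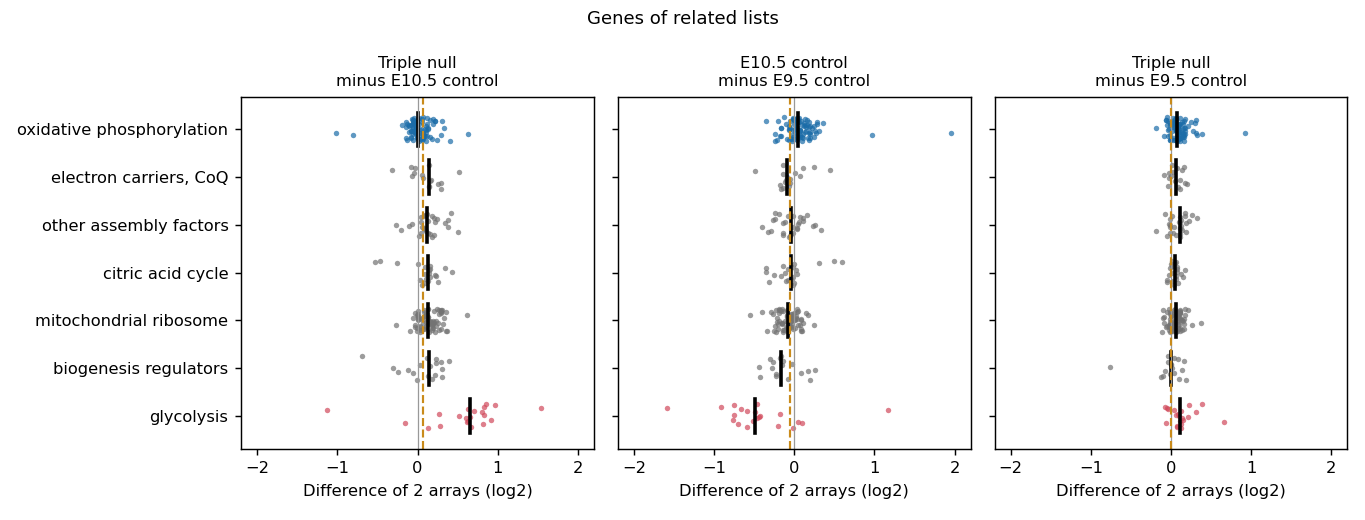
The difference between 2 arrays (log2, horizontal axis) of each gene of 7 lists, with black bars at the list medians and a dashed line at the median of all genes. Glycolysis genes have medians of 0.65, -0.49 and 0.11, and the members medians of 0.0011, 0.05 and 0.08.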

How the data were processed

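Per the file headers, the deposited spot intensity was made by the authors with Agilent Feature Extraction 9.5.3.1 (protocol GE1-v5_95_Feb07, 1 colour, array design 014868, annotation build mm7), and it is background-subtracted on a linear scale. The 3 arrays shared 1 slide and 1 day of scanning. Per the labels, RNA was amplified and labelled with Cy3.

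From 43379 non-control spots, log2 intensity minus the array's 75th percentile (1078, 1420 and 1064 in the order triple null, E10.5 control, E9.5 control) was taken, without 59, 52 and 83 spots marked as outliers. Saturation marked no spot. Repeated spots were averaged per probe. For 22951 of 41174 probes the design's accession gave 1 gene name in the RefSeq gene table (GRCm38.p6). A gene's value is the mean of its probes with signal above background somewhere, and 17 members had several. The scanner error is the software's error of each spot, combined over the spots and probes. Steps were tested on simulated data.

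Members, lists and the rule for named genes were chosen with earlier results of these data known. The rule took members 2-fold apart, the extremes of each complex and comparison, isoform pairs, succinate dehydrogenase and undetected members. It also took list extremes, some of which are given as counts only, and members with probes 1.5-fold apart, of which there were 0. Further genes, such as Ndufa2, Ndufb3, Ndufs7, Ndufab1, Atp5o, Tfam and Nrf1, were named outside this rule. The group of tissue-restricted isoforms was set after their values were seen. Alternatives were normexp (offset 50, on the median spot intensity), quantile normalization, scaling on detected genes, probe filters, the brightest or median probe, subunits alone, and the deposited value table of the same intensity (within 0.497%). A filter on bright genes was added after the data were seen. Work used Python 3.11.15, pandas 2.3.3, numpy 2.4.6, matplotlib 3.10.9, R 4.3.3 and limma 3.58.1.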

Additional observations from a re-analysis of the deposited data

How the results depend on the processing

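Each comparison rests on 1 array per group, and leaving out a replicate would end the comparison. No paired analysis was possible because each group has a single array. All arrays share 1 slide, so no slide block was run. Levels near background limit Cox8b, Cox4i2, Cox7b2 and Cox8c.

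Of 30 recomputed medians over all members, 28 moved by no more than 0.053, the median SD between spots of 1 probe. With quantile normalization the median was -0.094 in the first comparison, with 24 members above 0 in place of 43, and 0.156 in the second, and the cause was not tested. Of the recomputed medians of single complexes 140 stayed within that SD and 10 did not, all with quantile normalization. In the first comparison those of complexes III, IV and V turned from 0.04, 0.03 and 0.05 to -0.10, -0.09 and -0.10.

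The count of members at least 2-fold apart, 1 in the first comparison, was 0 with normexp, quantile normalization or bright genes alone and 2 with no filter on dim probes. In the second it was 0 in place of 1 with normexp or bright genes alone. At 1.5-fold the second count was 1 in place of 2 for bright genes, and the third was 0 with normexp or bright genes and 3 with no filter, in place of 1. The bright genes leave out Cox8b by construction.

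The median of the ADP and phosphate carrier list in the second comparison (0.08) became -0.068 with normexp and -0.0028 with no filter on dim probes. Cox6b2 and Cox7a1 stayed past 1.5-fold under each alternative in the comparisons where they were so. For Cox7a1 this was narrow with normexp, at 0.5856 against a threshold of 0.5850 on the log2 scale. Cox8b was not past 1.5-fold with normexp in the first comparison (-0.42).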
